A study of Drosophila melanogaster with 18 samples.

Results

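The genes grp, lok, nbs and mus101 encode parts of the DNA checkpoint, and they were followed here by every probe set whose array annotation gives one of these symbols alone. That rule found 6 of the 18952 probe sets, for 4 of the 10035 genes tested: 3 for grp and 1 each for lok, nbs and mus101. All 6 were among the 14560 probe sets that passed the filter on dim values. The embryos were hand picked, timed from telophase and collected as about 50 per biological replicate, with 3 replicates and so 3 arrays in each of 6 groups. Diploid embryos, from "w;histone H2-GFP" parents, were taken 15 minutes into cycle 13, 15 minutes into cycle 14 (early) and 40 minutes into cycle 14 (late). Haploid embryos, from "maternal haploid;histone H2-GFP" parents, were taken 15 minutes into cycle 14, 15 minutes into cycle 15 and 40 minutes into cycle 15. All flies were kept at 25 °C and all embryos carried the histone fusion used to watch the divisions. A haploid nucleus holds a single chromosome set, so the haploid groups stand 1 cycle later than the diploid groups with which they share a nuclear-to-cytoplasmic ratio. The design asks which transcript changes follow that ratio and which follow time or cycle. Ploidy and the genotype of the mother cannot be told apart, because every haploid embryo came from mutant mothers.

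The early fly embryo is a syncytium whose nuclei divide in near synchrony on RNA and protein loaded by the mother, until the cycle slows, the surface becomes cellular, maternal RNAs are cleared and the embryo's own genes are read. Checkpoint proteins sense unreplicated or broken DNA and hold mitosis back, and in this embryo they also lengthen the last syncytial interphases. The sensors bind DNA ends or single-stranded DNA, the large kinases encoded by mei-41 (ATR) and tefu (ATM) are recruited there, and the transducer kinases Chk1 and Chk2 carry the signal to the mitotic machinery. nbs encodes the fly Nbs1, a sensor that joins Mre11 and Rad50 at DNA ends. mus101 encodes the fly TopBP1, a scaffold with BRCT repeats that serves replication and, in vertebrates and yeast, activates ATR. grp (grapes) encodes Chk1, which mothers must supply for the late syncytial cycles to slow. lok (loki) encodes Chk2, which acts on damaged nuclei of the syncytial embryo. RefSeq lists grp (CG17161) and lok (CG10895) on chromosome arm 2L, nbs (CG6754) on 3L and mus101 (CG11156) on X.

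Values are quantile normalised array intensities, and a group's error is the SD over n = 3 arrays. An intensity of 31.95, below which 95% of the readings of 20 negative control probe sets fall, serves as background. Levels of different probe sets are not set against each other, because each probe set has its own brightness. Differences are log2 values ± SE from limma with Benjamini-Hochberg adjustment over all tested probe sets, and a gene was called at an adjusted p below 0.05. Each of the 4 genes is represented by its brightest probe set, as is each of the 10035 tested genes with a single symbol. In whole embryos, fewer cells of a type and less RNA per cell cannot be told apart.

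The samples carried their stage in other genes as well. All 7 blastoderm stage markers, such as Kr and ftz, were above background on every array. Of 6 genes listed as pole cell markers 4 were tested (osk, gcl, vas and ovo), all above background on every array. Their summed intensity ran from 8649 to 8946 in diploid cycle 13 and from 457.3 to 551.1 in haploid late cycle 15. Where in the embryo that fall took place, in pole cells or outside them, and its cause were not tested. Of the 7 tested yolk protein and eggshell genes of mother tissue, at most 1 was above background on all arrays of any group, and the list's summed intensity stayed between 85.7 and 263.9. Yp1, Yp3 and Cp38 were below background on all arrays of every group. Of 7 later nervous system and muscle markers 2 were tested, and their summed intensity rose from between 17.3 and 29.1 in diploid cycle 13 to between 780.9 and 874.9 in haploid late cycle 15, while repo stayed below background on every array. Replicate arrays of a group correlated at 0.928 to 0.947 across probe sets. The array controls of GAPDH and 18S RNA moved with a group. The GAPDH 3′ control read 965.2 ± 411.1 in diploid cycle 13, from 508.0 to 1305 on single arrays, and at most 151.6 on average in any other group. The 18S middle control read 986.6 ± 289.1 in haploid late cycle 15 and at most 395.7 on average elsewhere. The part of these controls in the results on diploid cycle 13 and haploid late cycle 15, and of the pole cell and later markers in the courses, was not tested.

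**Figure D1:**
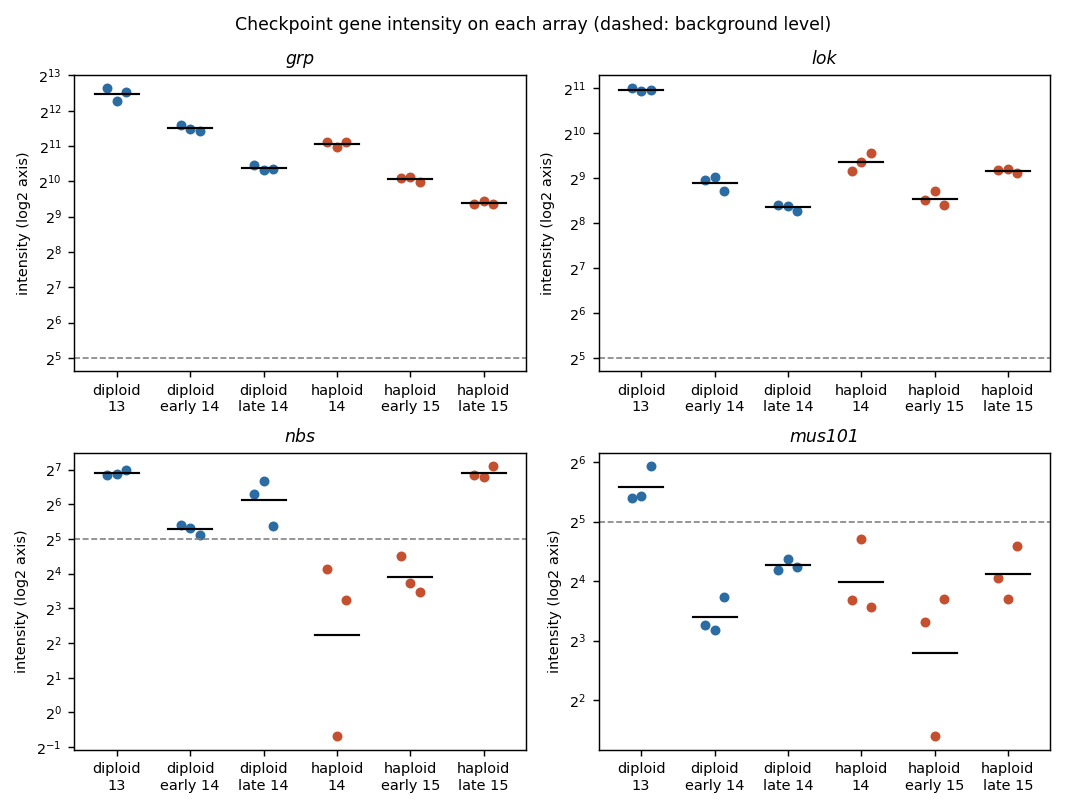
Quantile normalised intensity (log2 axis, arbitrary units) of the brightest probe set of grp, lok, nbs and mus101 on each of the 18 arrays, by group. Points are single arrays, blue for diploid and red for haploid, the bar is the mean of the log2 values, and the dashed line is the background of 31.95. grp steps down without overlap in each course, lok is highest in diploid cycle 13, nbs lies below background in haploid cycle 14 and early cycle 15, and mus101 lies above background in diploid cycle 13 only.

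The sensor gene nbs was read from 1632161_at. It measured 114.6, 118.0 and 126.4 in diploid cycle 13, on replicates 1, 2 and 3 in that order. Diploid early cycle 14 gave 42.1, 40.1 and 34.9, and diploid late cycle 14 gave 78.8, 101.7 and 41.2. In haploid embryos nbs read 17.6, 0.62 and 9.5 in cycle 14, 22.8, 13.3 and 10.99 in early cycle 15, and 114.9, 110.7 and 136.8 in late cycle 15. So nbs was below background on all arrays of haploid cycle 14 and haploid early cycle 15 and above it on all arrays of the other groups. Haploid late cycle 15 and diploid cycle 13 were the highest groups and overlapped.

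In haploid embryos nbs rose late. It was at least 3.76-fold higher in late than in early cycle 15, where the bound sets the late level against background (limma, log2 3.01 ± 0.70, adjusted p = 0.00145). The rise from cycle 14 to late cycle 15 had the same bound (limma, log2 4.68 ± 0.70, adjusted p = 4.73e-06), and the value between cycle 14 and early cycle 15, both below background, did not pass (limma, adjusted p = 0.104) but was called on the deposited scale (0.0133), with poly-A centring (0.0021) and without haploid cycle 14 replicate 1 (0.00574). At the matched ratio of haploid cycle 14 and diploid cycle 13, nbs was at least 3.74-fold lower in the haploids (limma, log2 -4.67 ± 0.70, adjusted p = 6.83e-06). At the same cycle and time, haploid cycle 14 was at least 1.22-fold below diploid early cycle 14 (limma, log2 -3.05 ± 0.70, adjusted p = 0.0024), and with values floored at the background that call was lost (limma, log2 -0.28, adjusted p = 0.593).

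The diploid course of nbs did not pass the test. The log2 difference from cycle 13 to early cycle 14 was -1.62 ± 0.70, although the arrays of the 2 groups did not overlap (limma, adjusted p = 0.0938). With 16 added to each intensity, which damps the spread of the dimmest arrays, the same fall was called (limma, log2 -1.30, adjusted p = 9.9e-05), as it was under each of the 4 other scalings (adjusted p from 0.00447 to 0.0145). From early to late cycle 14 the difference was 0.83 ± 0.70 (limma, adjusted p = 0.466), and the array of replicate 3 in late cycle 14 lay within the early range. It was called with 16 added (limma, adjusted p = 0.0407) and with a floor at the background (0.0161). From cycle 13 to late cycle 14 nbs gave -0.79 ± 0.70 (limma, adjusted p = 0.437). That fall was called with ribosomal protein centring (0.0365), poly-A centring (0.00972), 16 added (0.0276) and the floor (0.0145). The late groups of diploids and haploids differed by 0.80 ± 0.70 (limma, adjusted p = 0.525), with all 3 haploid arrays above all 3 diploid ones. This late difference was called with 16 added (limma, adjusted p = 0.0452) and with the floor (0.0249). The early pair at the matched ratio, haploid early cycle 15 against diploid early cycle 14, gave -1.38 ± 0.70 (limma, adjusted p = 0.169). With 16 added that pair was called (limma, log2 -0.81, adjusted p = 0.0104).

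The 2 partners of Nbs1 in its complex are encoded by mre11 and rad50. mre11, the nuclease, read 671.3 ± 64.1 in diploid cycle 13 and 778.4 ± 76.7 in early cycle 14, a difference that did not pass (limma, adjusted p = 0.0999). That rise was called on the deposited scale (0.40, adjusted p = 0.0199). It was also called without diploid cycle 13 replicate 1 (0.0457) or diploid early cycle 14 replicate 2 (0.0427). rad50, which holds the DNA ends together, fell from 296.5 ± 22.5 to 118.3 ± 11.2 (limma, log2 -1.33 ± 0.14, adjusted p = 6.14e-08). In haploids rad50 fell from 200.6 ± 25.0 in cycle 14 to 150.7 ± 8.8 in early cycle 15 (limma, log2 -0.41 ± 0.14, adjusted p = 0.0368), and mre11 gave a log2 difference of -0.04 ± 0.09 (limma, adjusted p = 0.829). This haploid call of rad50 was lost on the deposited scale (-0.35, adjusted p = 0.171) and with poly-A centring (-0.11, adjusted p = 0.762). It was also lost without haploid cycle 14 replicate 2 (0.179) or 3 (0.0617), or without haploid early cycle 15 replicate 1 (0.0566), 2 (0.0566) or 3 (0.129).

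The scaffold gene mus101 was read from 1635302_at. It measured 42.0, 43.1 and 60.9 in diploid cycle 13, 9.6, 9.0 and 13.3 in early cycle 14, and 18.3, 20.8 and 18.8 in late cycle 14. Haploid embryos gave 12.8, 26.3 and 11.9 in cycle 14, 9.9, 2.6 and 12.9 in early cycle 15, and 16.5, 13.0 and 24.1 in late cycle 15. Only the 3 arrays of diploid cycle 13 lay above background, so the remaining 5 groups have no usable order. mus101 fell at least 1.5-fold from diploid cycle 13 to early cycle 14 (limma, log2 -2.19 ± 0.54, adjusted p = 0.00295). It was at least 1.5-fold lower in haploid cycle 14 than in diploid cycle 13 (limma, log2 -1.59 ± 0.54, adjusted p = 0.0222). That second call was lost without diploid cycle 13 replicate 3 (adjusted p = 0.0922), haploid cycle 14 replicate 1 (0.0734) or haploid cycle 14 replicate 3 (0.0806). The difference from diploid cycle 13 to late cycle 14 narrowly missed the threshold (limma, log2 -1.32 ± 0.54, adjusted p = 0.0556), and 7 alternatives, among them all 4 scalings, called it.

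The Chk1 gene grp fell at every step of both courses on the brightest of its 3 probe sets. Its bright probe set, 1634230_s_at, measured 6403, 4920.1 and 5979 in diploid cycle 13, 3081, 2885 and 2769.9 in early cycle 14, and 1409, 1274 and 1312 in late cycle 14. In haploid embryos it measured 2208, 1996 and 2225 in cycle 14, 1104, 1119.5 and 1003 in early cycle 15, and 651.6, 695.9 and 653.0 in late cycle 15. Every later group of a course lay wholly below the earlier one. The full order was diploid cycle 13, diploid early cycle 14, haploid cycle 14, diploid late cycle 14, haploid early cycle 15 and haploid late cycle 15, and no neighbours in that order shared a value.

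In diploids grp fell 1.97-fold from cycle 13 to early cycle 14 and a further 2.19-fold to late cycle 14 (limma, log2 -1.13 ± 0.08, adjusted p = 9.43e-11), or 4.31-fold in all. In haploids it fell 1.99-fold from cycle 14 to early cycle 15 (limma, log2 -0.99 ± 0.08, adjusted p = 2.62e-09) and 1.61-fold to late cycle 15 (limma, log2 -0.69 ± 0.08, adjusted p = 2.49e-07), or 3.21-fold in all. With poly-A centring the first haploid step was -0.44 (limma, adjusted p = 0.0645), and the median of all tested probe sets stood at 0.63. The difference of the earlier steps, haploid minus diploid, was -0.02 ± 0.11, with an interval from -0.25 to 0.22 (limma, adjusted p = 0.965). It depended on the scaling, from -0.36 with median centring (adjusted p = 0.138) to 0.36 with poly-A centring (0.396), and was called under none of the 4. The later step was smaller in haploids by 0.44 ± 0.11 (limma, adjusted p = 0.00965). That difference did not pass under any of the 4 other scalings, where it was between 0.04 and 0.43.

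At each matched ratio grp was lower in haploid embryos. Haploid cycle 14 lay 2.68-fold below diploid cycle 13 (limma, log2 -1.42 ± 0.08, adjusted p = 1.38e-12). Haploid early cycle 15 lay 2.71-fold below diploid early cycle 14 (limma, log2 -1.44 ± 0.08, adjusted p = 3.82e-12), and haploid late cycle 15 lay 2.00-fold below diploid late cycle 14 (limma, log2 -0.997 ± 0.08, adjusted p = 1.54e-09). At the same cycle and time, cycle 14 at 15 minutes, the gap was 1.36-fold, again with the haploids lower (limma, log2 -0.44 ± 0.08, adjusted p = 2.81e-04).

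The other 2 probe sets of grp were dim and did not follow the bright one. On 1625416_x_at, whose suffix marks probes that may also bind other sequences, readings lay between 34.7 and 80.3. On 1629880_at they lay between 25.6 and 69.6, and diploid cycle 13 was below background. In diploid cycle 13 they read 37.9, 42.9 and 36.2 on the first of these and 30.01, 25.6 and 27.1 on the second. In haploid cycle 14 they read 62.1, 64.2 and 80.3, and 69.6, 69.5 and 31.95. In this scaling both were higher in haploid cycle 14 than in diploid cycle 13, the reverse of the bright probe set, by 0.81 ± 0.24 (limma, adjusted p = 0.0087) and by at least 1.68-fold (limma, log2 0.96 ± 0.33, adjusted p = 0.0243). Neither call was stable. The value for 1625416_x_at turned to -0.05 on the deposited scale and to -0.17 with poly-A centring, and its call was lost with median (0.0891) and ribosomal protein centring (0.719). The call of 1629880_at was lost on the deposited scale (0.607), with ribosomal protein (0.292) and poly-A centring (0.792) and with a floor at the background (0.0955). It was also lost without diploid cycle 13 replicate 2 (0.0679) or 3 (0.0562), or without haploid cycle 14 replicate 1 (0.12) or 2 (0.119). When all 3 probe sets were averaged, the gap between haploid cycle 14 and diploid cycle 13 was 0.12 (limma, adjusted p = 0.583). The averaging also ended the calls of grp in the first (-0.15, adjusted p = 0.505) and second diploid step (-0.09, 0.727). In the second haploid step it left -0.32 (limma, adjusted p = 0.0911).

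The Chk2 gene lok fell at both diploid steps. Its probe set, 1625038_s_at, measured 2038, 1957 and 1966 in diploid cycle 13, 493.3, 514.9 and 415.1 in early cycle 14, and 338.0, 331.0 and 305.1 in late cycle 14. Haploid embryos gave 570.4, 657.0 and 751.4 in cycle 14, 366.0, 416.0 and 337.6 in early cycle 15, and 572.8, 581.7 and 552.0 in late cycle 15. Diploid cycle 13 stood far above all other groups. Next came haploid cycle 14 and haploid late cycle 15, which overlapped, then diploid early cycle 14, haploid early cycle 15 and diploid late cycle 14, each overlapping the next.

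In diploids lok fell 4.21-fold to early cycle 14 and 1.46-fold more to late cycle 14 (limma, log2 -0.54 ± 0.10, adjusted p = 1.58e-04), a total of 6.12-fold. In haploids it fell 1.76-fold from cycle 14 to early cycle 15 (limma, log2 -0.82 ± 0.10, adjusted p = 1.34e-06) and then rose 1.53-fold to late cycle 15 (limma, log2 0.61 ± 0.10, adjusted p = 2.85e-05). Over the whole haploid course the difference was -0.20 ± 0.10 and did not pass (limma, adjusted p = 0.122), although median, ribosomal protein and poly-A centring called it as a fall (adjusted p from 7.15e-06 to 0.0296), as did leaving out haploid cycle 14 replicate 1 (0.0248). With poly-A centring the first haploid step missed the threshold (-0.44, adjusted p = 0.0718). The late haploid step was -0.09 with the same centring (limma, adjusted p = 0.728) while the median of all tested probe sets stood at -0.63, so that lok lay 0.54 above that median there. The 18S control, highest in haploid late cycle 15, moved with this rise of lok and with that of nbs.

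The lok steps differed between the courses. The earlier step was less negative in haploids by 1.25 ± 0.14 (limma, adjusted p = 1.76e-06) and the later one was more positive by 1.16 ± 0.14 (limma, adjusted p = 3.81e-06). At matched ratios lok went from 3.03-fold lower in haploid cycle 14 than in diploid cycle 13 (limma, log2 -1.60 ± 0.10, adjusted p = 7.73e-12) to 1.75-fold higher in haploid late cycle 15 than in diploid late cycle 14 (limma, log2 0.81 ± 0.10, adjusted p = 1.14e-06). With poly-A centring that late difference was 0.49 (adjusted p = 0.0933), against a median of -0.23. In between, haploid early cycle 15 was 1.27-fold below diploid early cycle 14 with overlapping arrays (limma, log2 -0.35 ± 0.10, adjusted p = 0.0114), and this call was lost without diploid early cycle 14 replicate 2 (0.0777) or haploid early cycle 15 replicate 3 (0.0767). At the same cycle and time haploid cycle 14 was 1.39-fold above diploid early cycle 14 (limma, log2 0.47 ± 0.10, adjusted p = 0.00126). That direction turned on the deposited scale (-0.34) and with poly-A centring (-0.27), where the median of all tested probe sets was -0.74 and -0.68. With ribosomal protein centring the difference was 0.25 and its call was lost (limma, adjusted p = 0.29).

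**Figure D2:**
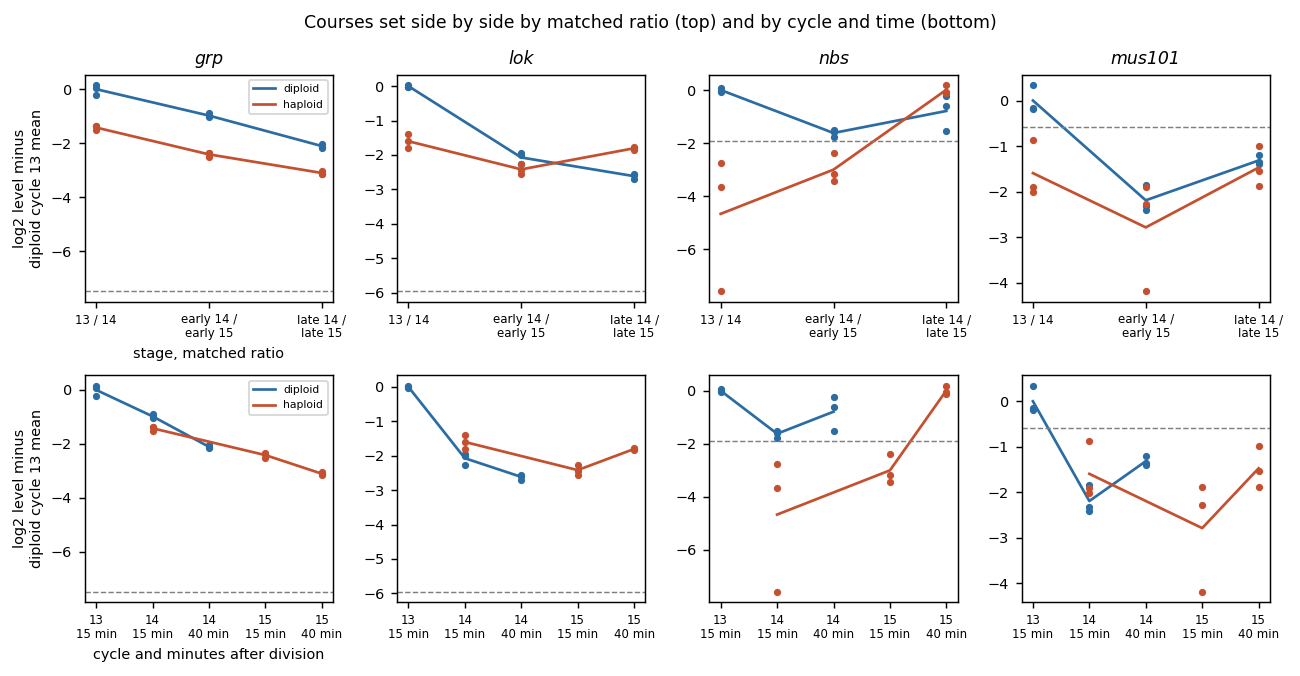
Log2 level minus the mean of diploid cycle 13 for grp, lok, nbs and mus101, with diploid (blue) and haploid (red) courses set side by side by matched nuclear-to-cytoplasmic ratio in the top row and by cycle and minutes after division in the bottom row. Points are arrays, lines join group means and the dashed line is background. At the matched ratio the grp courses are 1.42 apart at the start and 0.997 at the end in this scaling, while the lok courses cross between the early and the late stage.

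The calls were set beside those over all 10035 genes. In the first diploid step 3 of the 4 genes (grp, lok and mus101) were lower and 0 higher, against 13.1% lower and 19.8% higher over all genes. Of all probe sets called in this comparison 61.4% were higher, and 18.2% to 65.9% under the other scalings. In the second diploid step 2 of the 4, grp and lok, were lower and 0 higher, against 16.2% lower and 17.4% higher, with 52.6% of all calls higher and 13.0% to 25.9% under the other scalings. From diploid cycle 13 to late cycle 14 the same 2 were lower and 0 higher, against 19.9% and 27.6%, with 59.3% of calls higher and 18.4% to 40.4% otherwise.

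In the first haploid step 2 of 4 (grp and lok) were lower and 0 higher, against 12.3% lower and 11.7% higher over all genes, and 51.4% of all calls were higher, or 30.3% to 93.6% under the other scalings. In the second haploid step lok and nbs were higher and grp lower, against 16.6% higher and 17.8% lower, with 48.8% of calls higher and 12.3% to 46.8% otherwise. From haploid cycle 14 to late cycle 15 nbs was higher and grp lower, against 22.3% and 21.9%, with 51.8% of calls higher and 33.9% to 68.0% otherwise.

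Between haploids and diploids, 4 of 4 genes were lower in haploid cycle 14 than in diploid cycle 13, against 18.2% lower and 24.2% higher over all genes. Of the calls there 57.9% were higher, and 4.08% to 51.8% under the other scalings. In haploid early cycle 15 against diploid early cycle 14, grp and lok were lower and 0 higher, against 15.0% and 16.4%, with 53.3% of calls higher and 6.47% to 24.7% otherwise. In the late pair lok was higher and grp lower, against 11.2% and 14.2%, with 44.6% of calls higher and 10.8% to 30.9% otherwise. In haploid cycle 14 against diploid early cycle 14, lok was higher and grp and nbs lower, against 12.4% and 12.0%, with 49.5% of calls higher and 1.01% to 42.9% otherwise.

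For the difference between the courses, 2 genes (lok and nbs) had a more positive first step in haploids and 0 a more negative one, against 4.71% and 6.37% of all genes. Of the calls 44.0% were positive, and 37.4% to 99.1% under the other scalings. The nbs value, 3.29 ± 0.99 (limma, adjusted p = 0.037), sets the uncalled diploid difference of -1.62 against 2 haploid groups below background. It lost its call without any single array of diploid cycle 13 or diploid early cycle 14 or without haploid early cycle 15 replicate 1, with adjusted p from 0.0598 to 0.0966. For the second step the 2 more positive genes were grp and lok, with 0 negative, against 8.01% and 9.79%, and 45.1% of calls were positive, or 60.2% to 87.2% otherwise. The comparisons share groups with each other, so these counts are not independent.

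Of the 29 differences called for the 4 genes, 27 kept their sign under all 4 other scalings, and all 29 kept it when taken relative to the median of all tested probe sets. The exceptions were the late haploid rise of lok and its gap between haploid cycle 14 and diploid early cycle 14, both given above.

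**Figure D3:**
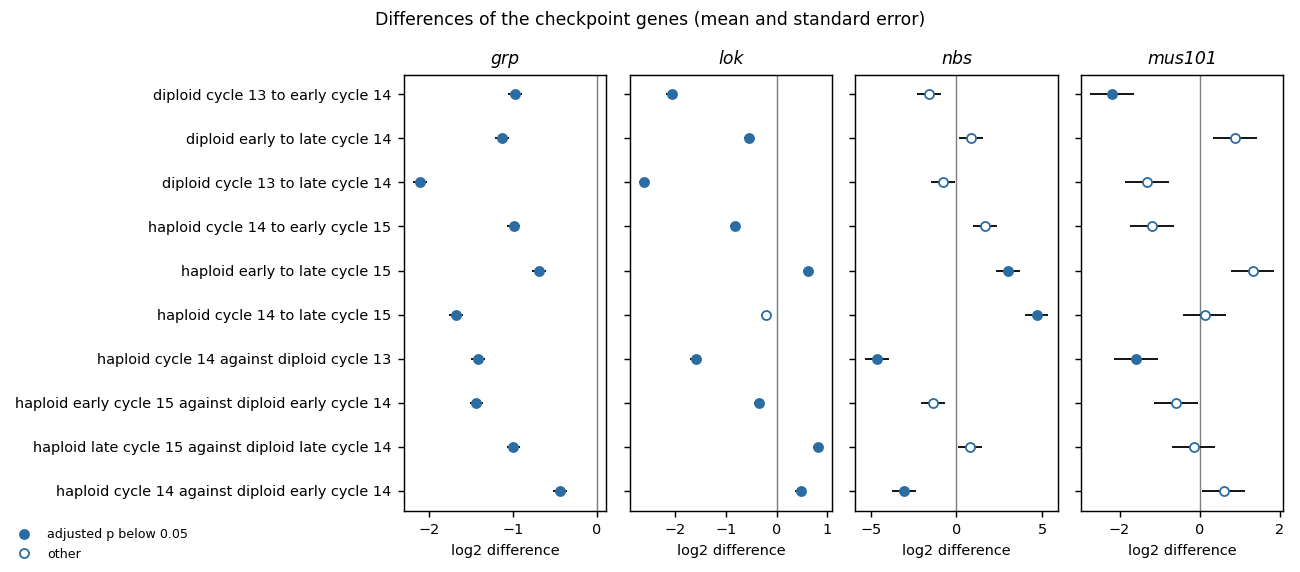
Log2 difference (mean and SE from the model, arbitrary log2 units) of grp, lok, nbs and mus101 in 10 comparisons, with filled points for an adjusted p below 0.05. All 10 differences of grp lie below 0, those of lok run from -2.61 to 0.81, and nbs and mus101 have wider errors of 0.70 and 0.54. For nbs and mus101 the size of a difference against a group below background has no meaning beyond its lower bound.

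The genes around these 4 were taken from 5 lists. Among checkpoint sensors and transducers other than the 4 genes, 14 of 15 listed genes were measured (Rad1 was not analysed here), and in the first diploid step 4 were higher and 4 lower, with a median of -0.15 against 0.10 over all genes. MCPH1, a BRCT protein of the checkpoint in vertebrates, fell from 87.5 ± 1.8 to 27.5 ± 11.5 (limma, log2 -1.74 ± 0.37, adjusted p = 7.52e-04). Only 1 of the 3 arrays of diploid early cycle 14 was above background for MCPH1, so the size of this fall is uncertain. mus304, the partner of the ATR kinase, fell from 304.6 ± 21.8 to 174.3 ± 21.9 (limma, log2 -0.81 ± 0.13, adjusted p = 2.27e-05). tefu, the fly ATM kinase gene, fell from 139.9 ± 22.0 to 90.0 ± 7.3 (limma, log2 -0.63 ± 0.17, adjusted p = 0.00628).

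rad50, given above, was the fourth that fell. The other genes of that list rose or did not pass the test. mei-41, the ATR kinase gene, stayed near background, at 19.5 ± 14.5 and 16.8 ± 17.5, so a change was not measurable. Hus1-like, a part of the sliding clamp at damaged DNA, rose by 0.58 ± 0.11 (limma, adjusted p = 1.92e-04). The clamp loader gene Rad17 did not pass the test (limma, -0.13 ± 0.11, adjusted p = 0.485), but its fall was called with ribosomal protein centring (-0.41, 0.0335). Rad9, the clamp partner of Hus1-like, did not pass either (limma, -0.17 ± 0.35, adjusted p = 0.812). Rad9 stayed near background, at 40.0 ± 2.6 and 35.9 ± 7.2, so a fall was hardly measurable. Claspin, which brings Chk1 to ATR, missed the threshold at -0.40 ± 0.15 (limma, adjusted p = 0.0517). Its fall was called under each of the 4 other scalings (limma, adjusted p from 1.24e-04 to 0.0243). A pseudocount of 16 (0.0442) and a floor at the background (0.0464) also gave the call. mu2, a mediator that binds chromatin at breaks, rose by 0.67 ± 0.09 (limma, adjusted p = 5.56e-06). p53, the transcription factor downstream of Chk2, gave 0.26 ± 0.08 (adjusted p = 0.0214) and timeout, of the replication fork, 0.35 ± 0.12 (adjusted p = 0.0384). Median centring ended the calls of Hus1-like (0.0959), p53 (0.0693) and timeout (0.737, and 0.388 on the deposited scale), and ribosomal protein and poly-A centring ended those of all 4. The p53 call was lost without diploid cycle 13 replicate 2 (0.093) or 3 (0.1) or diploid early cycle 14 replicate 2 (0.0724) or 3 (0.0518). The timeout call was lost without diploid cycle 13 replicate 1 (0.176) or 3 (0.0568) or any array of diploid early cycle 14 (0.0632 to 0.139). The rises on this list numbered 4 on the deposited scale, 1 with median centring and 0 with ribosomal protein or poly-A centring, and the falls 5 to 6.

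In the first haploid step the same list gave 1 higher and 3 lower, with a median of 0.07 against 0.02 over all genes. With poly-A centring it gave 6 higher and 0 lower. mus304 fell by 0.69 on the log2 scale (limma, ± 0.13, adjusted p = 2.01e-04) and Rad17 fell by 0.49 (± 0.11, adjusted p = 0.00181). tefu gave -0.14 ± 0.17 (adjusted p = 0.659) and MCPH1, below background in both haploid groups, 0.13 ± 0.37 (adjusted p = 0.874). With median centring tefu was called as a fall (-0.52, limma, adjusted p = 0.0269). p53 gave 0.24 ± 0.08 (limma, adjusted p = 0.0394), a call lost with median (0.745) and ribosomal protein centring (0.521) and with no intensity trend (0.089). It was also lost without haploid cycle 14 replicate 1 (0.137) or 3 (0.13) or any array of haploid early cycle 15 (0.0508 to 0.105). The mus304 and Rad17 calls were lost with poly-A centring (0.183 and 0.687), and that of Rad17 on the deposited scale (0.0807).

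Among targets and brakes of the cell cycle, 12 of 19 listed genes were measured, with 4 higher and 4 lower in the first diploid step and a median of 0.08 against 0.10. The listed genes stg, Wee1, Myt1, Cdk1, CycA, polo and aurA were not analysed here. Z600 (fruhstart), an inhibitor of cyclin-dependent kinase, rose from 1019.9 ± 127.3 to 4395 ± 110.0 (limma, log2 2.11 ± 0.09, adjusted p = 1.13e-14). trbl (tribbles), which promotes loss of the String phosphatase, rose from 195.2 ± 34.3 to 746.8 ± 58.0 (limma, log2 1.95 ± 0.12, adjusted p = 9.97e-12). bora, an Aurora A activator, rose by 0.40 ± 0.09 (adjusted p = 0.00119). The falls were led by Cdk2, at -1.14 ± 0.10 (limma, adjusted p = 4.46e-09), fzr, an activator of the anaphase-promoting complex, at -0.85 ± 0.14 (adjusted p = 3.75e-05), and CycE, at -0.43 ± 0.10 (adjusted p = 0.0012). The CycE fall was lost on the deposited scale (-0.07, adjusted p = 0.814), with median centring (-0.24, 0.147) and with poly-A centring (-0.26, 0.502), and that of fzr on the deposited scale (-0.50, 0.0693). The rise of bora was lost with ribosomal protein (0.288) and poly-A centring (0.213). Over the list, the diploid step gave 6 higher and 1 lower on the deposited scale, 5 and 2 with median centring, 2 and 4 with ribosomal protein centring and 2 and 2 with poly-A centring. In the first haploid step 4 were higher and 3 lower, or 7 and 0 on the deposited scale, 9 and 0 with poly-A centring and 3 and 3 with the other scalings. Z600 (1.51 ± 0.09, adjusted p = 2.82e-11) and trbl (1.66 ± 0.12, adjusted p = 5.42e-10) rose again there in the limma test.

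Among replication genes, 19 of 23 were measured, and in the first diploid step 11 fell and 1 rose, with a median of -0.74 against 0.10. Under the other scalings 9 to 14 fell and 0 to 3 rose. RPA1, the large subunit of the protein that coats single-stranded DNA and recruits ATR, fell from 1259 ± 163.5 to 198.7 ± 34.8 (limma, log2 -2.67 ± 0.18, adjusted p = 5.13e-11). Cdc45, part of the replicative helicase, fell at least 4.5-fold from 146.2 ± 30.8 (limma, adjusted p = 2.44e-06), and RfC4, of the clamp loader, fell by 1.42 on the log2 scale (± 0.13, adjusted p = 5.35e-09). The single rise was Cdc6, which loads the helicase (0.41 ± 0.14, adjusted p = 0.0315). It lost its call with ribosomal protein (0.42) and poly-A centring (0.259), no intensity trend (0.127) or a floor at the background (0.114), and without diploid cycle 13 replicate 2 (0.0989) or 3 (0.138) or diploid early cycle 14 replicate 1 (0.0573), 2 (0.0709) or 3 (0.0857). In the first haploid step 7 fell and 4 rose, with a median of -0.26 against 0.02, and poly-A centring gave 1 and 7. RPA1 fell from 114.7 ± 21.5 to 57.6 ± 16.8 there (limma, log2 -1.02 ± 0.18, adjusted p = 1.66e-04), a call lost with poly-A centring (-0.40, adjusted p = 0.202).

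Among genes of break and lesion repair, 19 of 25 were measured, with 6 lower and 2 higher in the first diploid step and a median of -0.52 against 0.10. Snm1, a nuclease for crosslinks, fell from 495.6 ± 29.4 to 185.2 ± 17.8 (limma, log2 -1.42 ± 0.19, adjusted p = 2.85e-06). Fancd2, of the Fanconi pathway, fell by 1.30 on the log2 scale (± 0.25, adjusted p = 2.53e-04), and Xpc, which finds bulky lesions, rose by 0.30 ± 0.06 (adjusted p = 5.96e-04), a call lost with ribosomal protein (0.325) and poly-A centring (0.263). Irbp gave -1.23 (limma, adjusted p = 0.0046) and XRCC1 gave 0.42 (limma, adjusted p = 0.0272). The XRCC1 call was lost under each of the 4 other scalings (0.0583 to 0.838). It was also lost without diploid cycle 13 replicate 1 (0.281) or diploid early cycle 14 replicate 1 (0.183). In the first haploid step 7 were lower and 2 higher, with a median of -0.09 against 0.02, and poly-A centring gave 2 and 4. Snm1 (-1.12 ± 0.19, adjusted p = 8.52e-05) and Fancd2 (-1.25 ± 0.25, adjusted p = 4.98e-04) fell there too in the limma test, the latter not with poly-A centring (0.116). Irbp gave -1.19 (limma, adjusted p = 0.00788) and XRCC1 gave -0.61 (limma, adjusted p = 0.00197), opposite to its diploid sign. Poly-A centring ended both calls (0.483 and 0.268). The Irbp call was also lost on the deposited scale (0.232) and without haploid early cycle 15 replicate 2 (0.075).

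Of the genes of damage-triggered cell death, 4 of 7 were measured, and 3 were higher and 0 lower in the first step of both courses. Over all genes 19.8% were higher in that step in diploids and 11.7% in haploids. The list's median was 0.88 against 0.10 over all genes in diploids and 0.99 against 0.02 in haploids. The listed genes hid, rpr and Drice were not analysed here. egr, the fly tumour necrosis factor, rose from 48.2 ± 7.2 to 211.5 ± 11.4 in diploids (limma, log2 2.14 ± 0.12, adjusted p = 1.17e-12) and from 162.2 ± 30.9 to 671.8 ± 31.1 in haploids (limma, log2 2.07 ± 0.12, adjusted p = 1.51e-11). skl (sickle), an inducer of apoptosis, rose by 1.52 ± 0.21 (adjusted p = 5.16e-06) and by 0.80 ± 0.21 (adjusted p = 0.00721). The haploid call of skl was lost with median (0.073) and ribosomal protein centring (0.0738) and without haploid cycle 14 replicate 3 (0.0559). Under the other scalings 2 to 3 of the 4 were higher in diploids and 1 to 3 in haploids, with 0 lower.

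**Figure D4:**
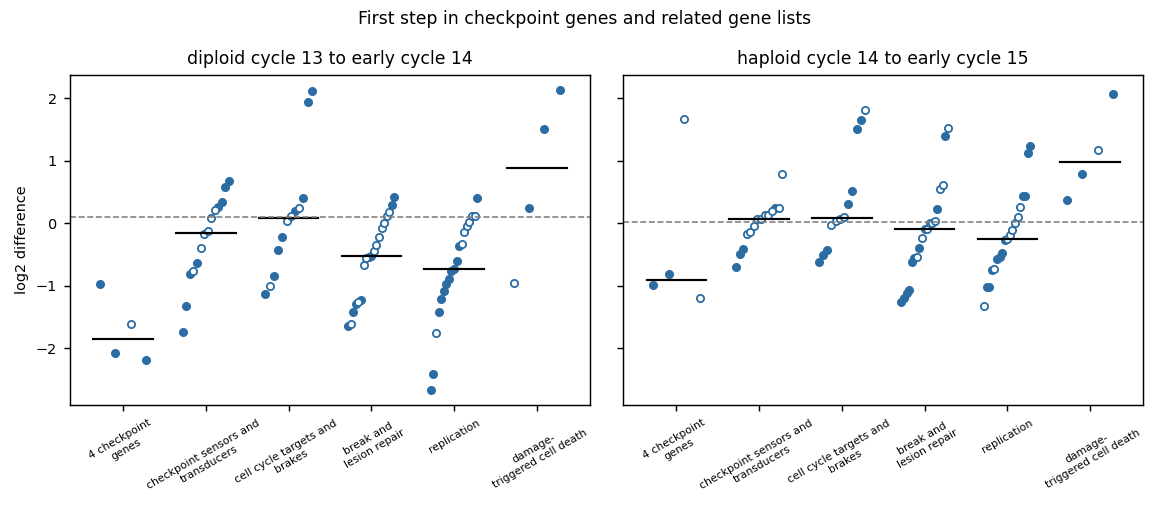
Log2 difference of the first step in diploids (left) and haploids (right) for the 4 checkpoint genes and the measured genes of 5 related lists, sorted within each list. Filled points have an adjusted p below 0.05, the bar is the list's median and the dashed line the median of all genes. In diploids the replication genes have the lowest median of the lists, -0.74, and the cell death genes the highest, 0.88.

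To describe which genes had the most similar course, Pearson's r over the 18 arrays was computed between each of the 4 genes and 6589 genes, with no test, since the arrays share 6 groups and any gene with the same course scores high. grp was most like Idh (0.991), Pxt (0.989), Vha36-1 (0.986), Moe (0.985) and ZnT86D (0.984). lok was most like Tim8 (0.974), opm (0.973), Naa80 (0.972), dx (0.972) and Rpn8 (0.971). nbs was most like RhoGAP92B (0.956) and Golgin104 (0.912). mus101 was most like Strump (0.885), AP-2sigma (0.872), Klp68D (0.866), Irbp (0.863) and Mvl (0.844). Most groups of mus101 and some groups of nbs lay below background on all arrays, as given above. The r values of these genes therefore rest in part on readings with no usable order, and no shared function is drawn from them.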

How the data were processed

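RNA from whole embryos was measured on 18 Affymetrix arrays, 3 for each of 6 groups taken from the labels. The authors deposited linear intensities made with MAS5, per the submitters' processing notes. Neither its version nor the target it scaled to is given in the sources used here. The 2%-trimmed means ran from 145.5 to 279.1, so arrays were quantile normalised and log2 transformed, with 1 value below 0.1 set to 0.1. A probe set was tested where 3 or more arrays reached 12.0, the 40th percentile of the table, which left 14560. One model with 6 group means was fitted with limma 3.58.1 (R 4.3.3) with an intensity trend. For a dimmer group whose arrays all lay under background, the brighter group over background gives a lower bound. The number of arrays limits precision.

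Members, lists and the naming rule were chosen with earlier results of these data known. All probe sets of the 4 genes were named, with fixed partners and, of each list, up to 3 genes with the largest fall and rise in the first diploid step among called genes whose arrays did not overlap. Symbols came from the array annotation (13647 probe sets with a single symbol, 402 with several, 4720 with none). Genome coordinates and sequences were not used here. On simulated data, 200 changed probe sets were used to test the fit. Same-numbered replicates of different groups were checked for pairing, after each probe set's group mean was subtracted. Of the 45 pairs 0 correlated over 0.1 in what remained, so the numbers do not pair samples.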

Additional observations from a re-analysis of the deposited data

Results flagged for a closer look

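A difference between the haploid and the diploid course, tested as haploid minus diploid step in limma, set these values apart. For lok it was 1.25 in the first step and 1.16 in the second. For nbs it was 3.29 in the first step (SE 0.99, adjusted p = 0.037), where both haploid groups lay below background, and leaving out any of 7 single arrays (diploid cycle 13 replicates 1, 2 and 3, diploid early cycle 14 replicates 1, 2 and 3, and haploid early cycle 15 replicate 1) ended the call, with adjusted p from 0.0598 to 0.0966. For grp it was 0.44 in the second step. For rad50 it was 0.92 in the first step (SE 0.19, adjusted p = 0.00299) and 0.62 in the second (SE 0.19, adjusted p = 0.0335); the latter was lost with poly-A centring (adjusted p = 0.181) and without diploid early cycle 14 replicate 1 (0.0916), diploid late cycle 14 replicate 1 (0.112), haploid early cycle 15 replicate 3 (0.0785) or haploid late cycle 15 replicate 3 (0.0709).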

How the results depend on the processing

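Of the 480 values of the 4 genes under 10 alternative settings, 427 kept direction and side of the threshold, 17 lost the call, 30 gained it and 6 turned; of 336 with an array left out, 321 kept both, 12 lost and 3 gained the call. Averaging the 3 probe sets of grp, 2 of them near background, gave 1 called gene in the second diploid step, the whole diploid course, the early matched pair and the second-step difference, and turned grp to 0.12 against diploid cycle 13, 0.27 against diploid early cycle 14 and -0.23 in the second-step difference. It also ended the grp calls in the first diploid step (limma, adjusted p = 0.505) and the second haploid step (0.0911). In the whole diploid course 4 genes were called with ribosomal protein centring, poly-A centring, a pseudocount of 16 or a floor at the background, the last chosen after seeing the data. With poly-A centring 1 gene was called in the first haploid step, nbs in place of grp and lok, and 1 in the late matched pair, grp. The first-step difference had 1 gene with no filter or no intensity trend. The second-step difference had 1 under each of the 4 scalings and with no intensity trend; the cause was not tested. Leaving out an array gave 1 to 2 genes in the early matched pair and in the first-step difference. lok turned to -0.094 (late haploid step, poly-A centring) and to -0.34 and -0.27 (haploid cycle 14 against diploid early cycle 14, deposited scale and poly-A centring). Also turned were mre11 in the first haploid step (0.47, poly-A), p53 averaged over probe sets (-0.0083 in diploids and -0.37 in haploids), timeout (-0.10, ribosomal proteins) and 1625416_x_at (-0.047 and -0.17, deposited and poly-A). Over all tested probe sets, calls moved from 3977 to 2622 (ribosomal proteins) and 1819 (poly-A) in the first diploid step, and with poly-A centring from 2954 to 4706 in the first haploid step, 3838 to 2059 and 3058 to 1818 in the early and late matched pairs, 2987 to 5145 at the same cycle and time (6914 on the deposited scale) and 2109 to 694 in the second-step difference; the first-step difference moved from 1304 to 750 on the deposited scale. With a replicate block the first diploid step kept 3 called genes, and no count of called genes among the 4 moved in any of the 12 comparisons. Groups below background limit what nbs and mus101 can show.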
